A study of Lachancea kluyveri with 31 samples.

Results

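*YAP5* (SAKL0F05434g), on chromosome F of the yeast *Lachancea kluyveri*, was 1 of 5316 genes on the array and was measured by 2 of its 10620 gene probes. All probes whose name begins with the gene's identifier were taken. The gene was picked from its readout, as one whose rise at low iron was known to be larger in *sef1*Δ than in wild-type (WT) cells and to need *AFT1*. The values of WT, *sef1*Δ, and *aft1*Δ cells therefore chose the gene. They are given as a description with no test, and so are the differences of *YAP5* between *sef1*Δ*aft1*Δ and these strains, in which one side chose it. The choice does not say on which arrays the need for *AFT1* was seen. It was read here as *aft1*Δ against WT, which leaves low against high iron within *sef1*Δ*aft1*Δ to be tested. If the *sef1*Δ*aft1*Δ arrays took part in the choice, that comparison is a description as well. Of the gene's annotations in the study's tables, one compares it to *S. cerevisiae* Yap5, a basic leucine zipper (bZIP) factor that senses iron, and another to YOL029C, a protein of unknown function. The name *YAP5* rests on the first of these.

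Each of 4 strains was grown at low and at high iron, which gave 8 groups of biological repeats. The double mutant *sef1*Δ*aft1*Δ lacked both regulator genes (*aft1*Δ::HphMX4 made in the *sef1*Δ line), *aft1*Δ and *sef1*Δ lacked one each (KanMX6), and WT (JYL1897) was the parent of all of them. Each genotype was represented by a single clone, and all carried the *ura3* mutation. Overnight YPD cultures were diluted and kept for 5.5 h at 30 °C in YPD with the iron chelator BPS (low iron, 200 µM) or with ferrous ammonium sulfate (high iron, 400 µM). In the labels, both numbers carry the unit mM. The *sef1*Δ high-iron group had 3 arrays and the other 7 groups had 4. All 31 arrays were single-color Agilent arrays, and a level is given throughout as the log2 signal of a probe minus the 75th percentile of its array, so that a level of 0 equals that percentile.

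Yeasts answer iron shortage by switching on genes for iron uptake, which the activator Aft1 controls in *S. cerevisiae*. The answer to iron excess is different: in *S. cerevisiae*, the Yap5 protein sits on the promoters of iron storage and iron-sulfur genes and activates them when it carries iron-sulfur clusters. Known Yap5 targets there are *CCC1*, the importer that moves iron into the vacuole, *TYW1*, an iron-sulfur enzyme of tRNA modification, and *GRX4*, a monothiol glutaredoxin. Sef1 activates iron-uptake genes in *Candida albicans*. 

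The arrays had 97.8 to 99.7% of gene probes well above background, and their 75th percentiles lay between 10420 and 23266 intensity units. Every strain had its own slide, and the slides of the mutants shared a scanning session in which the WT slide was not included, so that a difference between strains at one iron level cannot be told apart from a difference between slides. Such an offset cancels in the iron response (low minus high iron) and in differences between iron responses. The deleted genes were checked first. *SEF1* had log2 differences from WT of −4.60 at low and −4.56 at high iron in *sef1*Δ*aft1*Δ and of −4.95 and −5.31 in *sef1*Δ. Its probe was still marked well above background on 4 of 4 arrays at each iron level in *sef1*Δ*aft1*Δ. In *sef1*Δ, the mark was met on 3 of 4 arrays at low and 3 of 3 at high iron. The *AFT1* probe failed the mark for signal well above background on every array of the *aft1*Δ and *sef1*Δ*aft1*Δ strains. It was at least 74.5-fold below WT in *aft1*Δ and at least 96.0-fold below WT in *sef1*Δ*aft1*Δ cells at low iron. In *aft1*Δ cells, genes of chromosome A had a median log2 difference from WT of 0.85 at low iron and 0.81 at high iron, whereas chromosome F, which holds *YAP5*, had medians of −0.08 and −0.09. The chromosome A medians were 0.03 and 0.10 in *sef1*Δ*aft1*Δ and 0.02 and 0.01 in *sef1*Δ, so that only *aft1*Δ had the shift. In comparisons of *aft1*Δ with another strain, the effect of a deletion cannot be told apart from this difference between single clones.

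Both *YAP5* probes gave clear signals. The spots were well above background on 31 of 31 arrays, with no saturated spot and none marked as non-uniform. Intensities of the brighter probe, called the first probe here and used for the gene in the fit, ran between 4087 and 43572 units, and those of the second probe between 1715 and 17282 units, against local backgrounds of at most 91. The probes followed each other across the 31 arrays (Pearson's r = 0.93), which is mostly the difference between groups: the deviations of single arrays from their group means had an r of 0.05. The spread within groups was larger for the second probe (pooled SD 0.25) than for the first (0.12). Their levels are not set against each other.

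*YAP5* was highest in low-iron *sef1*Δ cells and next highest in low-iron WT cells, and it was not induced in *aft1*Δ cells. In the low-iron *sef1*Δ cultures, the first probe read 0.90, 1.04, 1.09, and 1.08, against −0.90, −0.93, and −1.08 in the high-iron cultures. In WT cells, the values were 0.28, 0.70, 0.47, and 0.26 at low iron and −0.89, −0.71, −0.90, and −0.76 at high iron. In both strains all low-iron arrays stood above all high-iron arrays, as 14.3% of all genes did in *sef1*Δ and 10.1% in WT. The difference was 1.99 in *sef1*Δ (95% CI 1.79 to 2.20), which is 3.99-fold, and 1.24 in WT (1.05 to 1.43), which is 2.36-fold. The share of all genes called higher at low iron was 3.29% in *sef1*Δ and 2.8% in WT, a call being an adjusted p of at most 0.05 with a change of at least 1.5-fold; *YAP5* is not counted as a call because these arrays chose it. By size of the rise, the gene ranked 20 of 5316 in *sef1*Δ and 46 of 5312 in WT cells.

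In *aft1*Δ cells, the first probe read −1.32, −1.45, −1.30, and −1.35 at low iron, against −1.09, −1.03, −0.96, and −1.23 at high iron. Here the low-iron arrays were the lower ones, with no overlap (as for 10.5% of all genes), and the difference of −0.28 (95% CI −0.47 to −0.09) was 1.21-fold. The second probe gave −3.13, −2.66, −2.70, and −2.60 at low iron and −2.98, −2.66, −2.59, and −2.43 at high iron, so that its groups overlapped and its difference was −0.11 (−0.45 to 0.23). Neither probe showed a rise at low iron in this strain.

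In *sef1*Δ*aft1*Δ cells, *YAP5* was modestly higher when iron was low. The first probe read −0.72, −0.53, −0.63, and −0.79 at low iron, against −1.27, −1.03, −0.98, and −1.25 at high iron. Each low-iron array stood above each high-iron array, which held for 13.6% of all genes. The rise was 0.47 ± 0.09 (SE, n = 4 each), or 1.38-fold, with an adjusted p of 0.000176 (limma) and a 95% CI of 0.28 to 0.66. It passed the test for a difference but stayed below the 1.5-fold size set for a call, whereas 7.13% of genes were called higher in this comparison and *YAP5* ranked 578 of 5316. An exact two-sided permutation test of these 8 arrays gave p = 0.0286, the smallest value that 70 splits allow. The lack of overlap fixes this value, so it is no separate result. Arrays of the same number, paired within the strain, differed by 0.55, 0.50, 0.36, and 0.46, a rise in 4 of 4, which follows from the lack of overlap.

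The second probe gave the same order in the double mutant. It read −2.12, −1.97, −1.46, and −1.68 at low iron, against −2.53, −2.41, −2.19, and −2.39 at high iron, again with no overlap between the groups (14.6% of genes on their second probes). The rise was 0.57 ± 0.17 (SE, n = 4 each), or 1.49-fold, with an adjusted p of 0.00647 (limma). The exact permutation p was again 0.0286, which the lack of overlap fixes here too. In the strains that chose the gene, the second probe read −0.61, −0.29, 0.21, and −0.93 in low-iron *sef1*Δ cells, against −2.59, −2.55, and −2.57 at high iron. It read −1.05, −1.15, −1.23, and −1.24 in low-iron WT cells, against −2.65, −2.52, −2.54, and −2.73 at high iron. These groups did not overlap in either strain, and the differences were 2.16 in *sef1*Δ and 1.44 in WT.

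**Figure D1:**
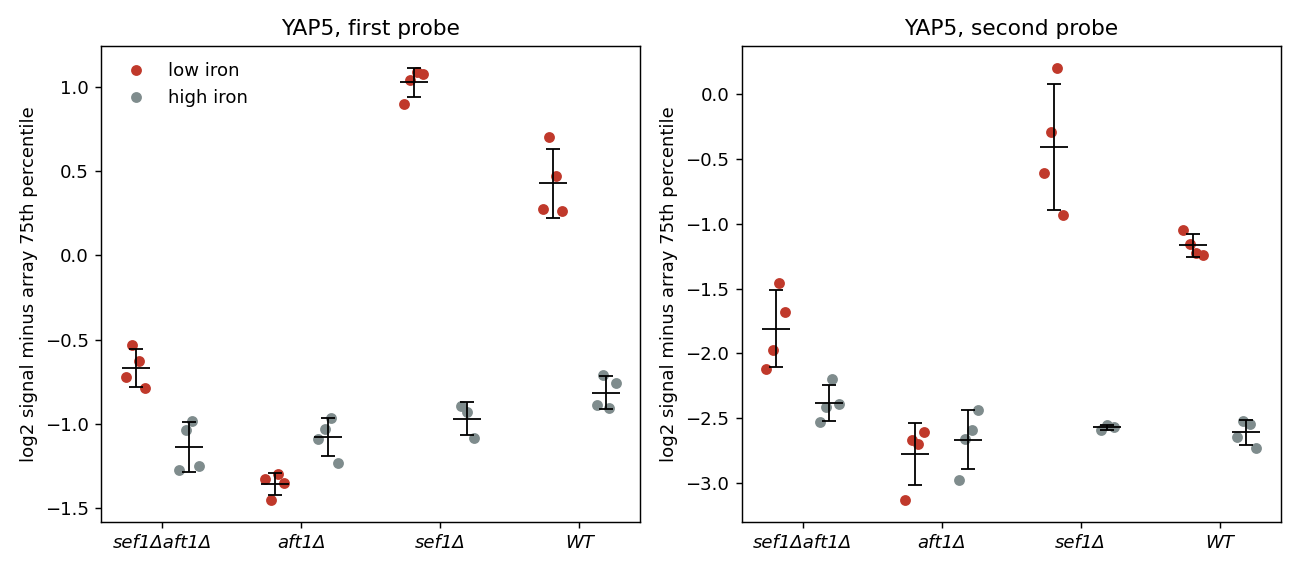
Level of *YAP5* on each array (points; log2 signal minus the array's 75th percentile) for the first probe (left) and the second probe (right) in 4 strains at low iron (red) and high iron (grey), with group means and SDs (black; n = 4, but 3 for *sef1*Δ at high iron). Low-iron *sef1*Δ and WT arrays stand highest, the low-iron *sef1*Δ*aft1*Δ arrays stand above their high-iron arrays, and the *aft1*Δ arrays do not rise.

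Ordered by mean, the first probe ran from *aft1*Δ at low iron (−1.36 ± 0.07, SD) through *sef1*Δ*aft1*Δ (−1.14 ± 0.15), *aft1*Δ (−1.08 ± 0.11), *sef1*Δ (−0.97 ± 0.10), and WT (−0.81 ± 0.10) at high iron to *sef1*Δ*aft1*Δ (−0.67 ± 0.11), WT (0.43 ± 0.20), and *sef1*Δ (1.03 ± 0.09) at low iron. Neighbouring groups among the high-iron ones overlapped, as did *sef1*Δ*aft1*Δ at low iron and WT at high iron. The low-iron level of the double mutant overlapped the high-iron level of WT on the first probe, whereas on the second probe it stood above every high-iron group. The top 3 groups came in the same order on both probes, with no overlapping arrays among these 3. The order of the high-iron groups was not the same on both probes.

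Among low-iron cells, *YAP5* in the double mutant lay between *aft1*Δ on one side and WT and *sef1*Δ on the other. It was 2.14-fold lower in *sef1*Δ*aft1*Δ than in WT cells (log2 −1.09, 95% CI −1.29 to −0.90), where 13.5% of all genes were called lower. Against *sef1*Δ, it was 3.23-fold lower in *sef1*Δ*aft1*Δ cells (−1.69, −1.88 to −1.501; 7.37% of genes called lower). Against *aft1*Δ, it was 1.61-fold higher in *sef1*Δ*aft1*Δ cells (0.69, 0.50 to 0.88; 13.2% of genes called higher). Each of these comparisons has on one side arrays that chose the gene, which favours a difference, and each sets one slide against another. With the second probe, the differences had the same directions and were 1.56-, 2.64-, and 1.95-fold, where 8.56, 8.47, and 13.1% of genes were called in the same direction.

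At high iron, the differences were smaller. *YAP5* in *sef1*Δ*aft1*Δ cells was 1.25-fold lower than in WT (−0.32, 95% CI −0.51 to −0.13). It differed by −0.17 from *sef1*Δ (95% CI −0.37 to 0.04) and by −0.06 from *aft1*Δ (−0.25 to 0.14). With the second probe, the double mutant was above the other strains by 0.23, 0.19, and 0.28, so that none of these high-iron differences had a direction that both probes shared. The other differences from WT at high iron were −0.16 (−0.36 to 0.05) in *sef1*Δ and −0.27 (−0.46 to −0.07) in *aft1*Δ cells.

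The iron responses of *YAP5* were next set against each other between strains, as a description, since each difference holds arrays that chose the gene. In cells without *AFT1*, the iron response was larger by 0.75 in *sef1*Δ*aft1*Δ than in *aft1*Δ (95% CI 0.47 to 1.02), with *aft1*Δ chosen as a strain without a rise. In this comparison, 6.66% of genes were called higher and the rank of *YAP5* was 253 of 5316. In cells with *AFT1*, the difference of *sef1*Δ minus WT was 0.75 (0.47 to 1.04), the value on which the gene was chosen. The first of these minus the second was −0.0088, with a 95% CI of −0.40 to 0.38, and −0.04 (−0.73 to 0.66) with the second probe. Effects that differ by any size within these intervals remain possible. On the second probe, the *sef1*Δ*aft1*Δ minus *aft1*Δ difference was 0.68 (0.20 to 1.16; 7.17% of genes called higher).

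Strains that differ in *AFT1* were compared in the same way. The iron response in *sef1*Δ*aft1*Δ minus that in *sef1*Δ cells, whose large response chose the gene, was −1.53 (95% CI −1.81 to −1.24; 8.92% of genes called lower). The difference of *aft1*Δ minus WT was −1.52 (95% CI −1.79 to −1.25). By arithmetic, the first of these minus the second is the same −0.0088 as above, so their likeness is no separate result. Against WT, the response of the double mutant differed by −0.77 (−1.04 to −0.50; 7.06% of genes called lower), and the second probe gave −0.87. With both genes deleted, *YAP5* had a rise in 4 of 4 pairs on the first probe. The strain lacking *AFT1* alone had a fall in 4 of 4 pairs, of −0.24, −0.42, −0.33, and −0.12. As low- and high-iron arrays did not overlap in either strain on this probe, any pairing gives these counts.

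**Figure D2:**
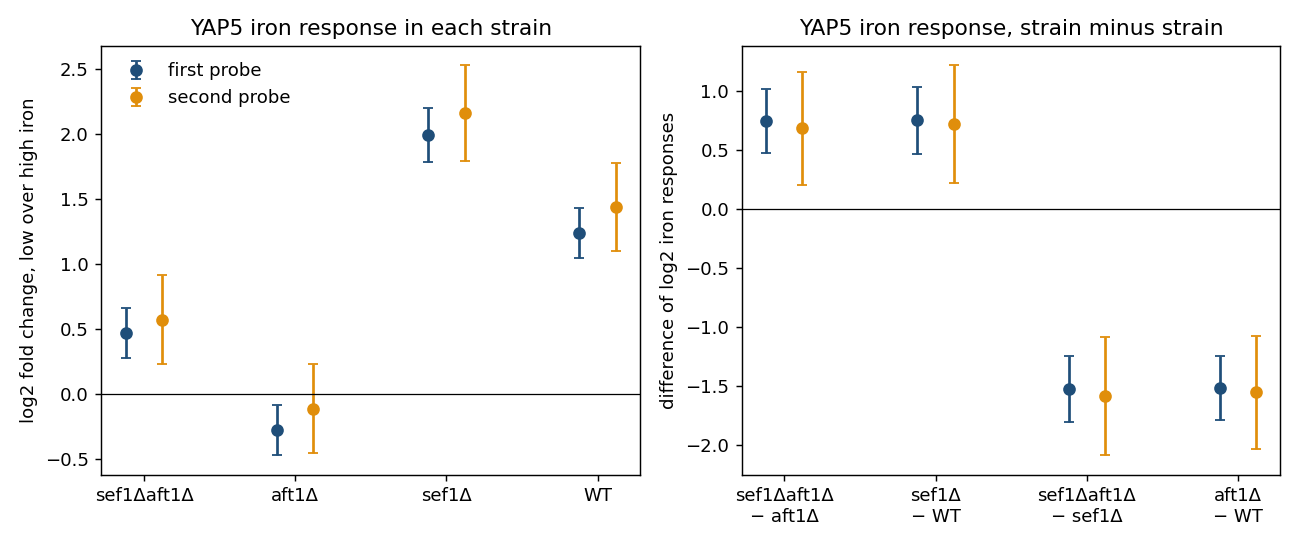
Log2 fold change of *YAP5* at low over high iron in each strain (left) and differences of these responses between strains (right), for the first probe (blue) and the second probe (orange), with 95% CIs from the fit over 31 arrays. On the first probe, the *sef1*Δ*aft1*Δ minus *aft1*Δ difference and the *sef1*Δ minus WT difference both stood at 0.75. The *sef1*Δ*aft1*Δ minus *sef1*Δ and *aft1*Δ minus WT differences stood at −1.53 and −1.52, a likeness that follows from the first by arithmetic.

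*YAP5* belongs to a group of iron-uptake-related genes that the study drew up from genes induced in low-iron WT cells on these arrays, so that their rise in WT is no independent evidence. The 28 other genes of the group encode metalloreductases, multicopper oxidases, iron permeases, siderophore transporters, copper and zinc transporters, the heme oxygenase *HMX1*, and the regulators *AFT1* and *CTH1*. In WT cells, 28 of 28 were called higher at low iron, with a median log2 change of 2.09 against −0.01 over all genes, and 22 of them changed more than *YAP5* did. In *sef1*Δ cells, 26 of 28 were called higher (median 2.01; −0.005 over all genes), and 14 of them exceeded *YAP5*. Thus *YAP5* was in the lower part of the group in WT and near its middle in *sef1*Δ cells. One gene of the group, *ARN3*, gave no array with signal well above background.

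In *aft1*Δ cells, 3 of 28 were called higher and 3 lower (median −0.04; 0.02 over all genes, of which 1.47% were called higher and 1.88% lower). Of those called higher, the deleted *AFT1* and *ARN3* had no signal well above background, which leaves the zinc transporter gene *ZRT1* (2.02). Those called lower were *HMX1* (−3.38), the metalloreductase gene *FRE5* (−1.04), and the multicopper oxidase gene *FET3* (−0.72), of which *FRE5* was not called with its second probe (−1.04, adjusted p = 0.0504, limma). In *sef1*Δ*aft1*Δ cells, 8 of 28 were called higher and 2 lower, against 7.13% and 7.51% of all genes, and the median was 0.24 against −0.06 over all genes. The genes called higher were *CTH1* (1.20), encoding an RNA-binding protein that in *S. cerevisiae* promotes decay of messages for iron-using proteins, the siderophore transporter gene *ARN2* (1.19), *ZRT1* (1.19), the copper transporter genes *CTR3* (0.95), *CTR2* (0.68), and *CTR1* (0.66), *FRE1* (0.66), and the permease gene *FTR2* (0.60). With their second probes, *CTR1* (0.51), *CTR2* (0.39), and *FTR2* (0.0048) were below the size for a call. The genes called lower were *HMX1* (−3.60) and *FET3* (−0.59). With 0.47, *YAP5* lay below the 8 called higher, and 11 of the 28 had a larger rise than it did.

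Without *AFT1* (*sef1*Δ*aft1*Δ minus *aft1*Δ iron response), 6 of the 28 were called higher and 2 lower, against 6.66% and 7.62% of all genes. The 6 were *ARN2* (1.503), *FRE5* (1.15), *CTR3* (0.98), *FTR2* (0.90), *CTH1* (0.87), and *FET1* (0.62), and *YAP5* (0.75) lay between *CTH1* and *FET1*. The 2 called lower were *ZRT1* and *ARN3*, the latter without signal well above background. With their second probes, *ARN2* (0.80), *CTR3* (1.21), and *CTH1* (1.12) were called and *FRE5* (0.92), *FTR2* (0.22), and *FET1* (0.19) were not. The group's median was 0.21, against −0.08 over all genes. With *AFT1* present (*sef1*Δ minus WT), 2 were called higher, *ZRT1* (1.08) and the siderophore transporter gene *SIT2* (0.86), and 2 lower, *FRE2* (−1.16) and *FRE3* (−1.25), against 1.43% and 1.45% of all genes. With their second probes, *ZRT1* gave −0.14, *SIT2* 0.53 (not called), and *FRE2* 1.27. In that comparison, 3 of the 28 had a larger difference than *YAP5*: *ZRT1*, *SIT2*, and *FTR2* (0.84), the last of which was not called. *FTR2* shared with *YAP5* a difference of similar size with and without *AFT1*, but its second probe gave 2.07 with and 0.22 without *AFT1*.

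The regulator genes themselves changed as follows. *AFT1* rose by 2.03 in *sef1*Δ and by 2.45 in WT cells at low iron (both called, limma). At low iron, its level was −0.88 ± 0.30 in *sef1*Δ, against −1.01 ± 0.13 in WT cells (SD, n = 4 each). At high iron, it was −2.90 ± 0.14 in *sef1*Δ (n = 3), against −3.46 ± 0.17 in WT (n = 4). *CTH1* read 1.52 ± 0.33 in *sef1*Δ (n = 4), against 1.13 ± 0.19 in WT (n = 3, a marked spot left out) at low iron, and −0.92 ± 0.38 in *sef1*Δ*aft1*Δ, against −1.77 ± 0.05 in *aft1*Δ cells (n = 4 each). *SEF1* differed by −0.05 between low and high iron in WT (95% CI −0.39 to 0.28) and by 0.04 in *aft1*Δ cells (−0.29 to 0.38), and was not called in either.

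**Figure D3:**
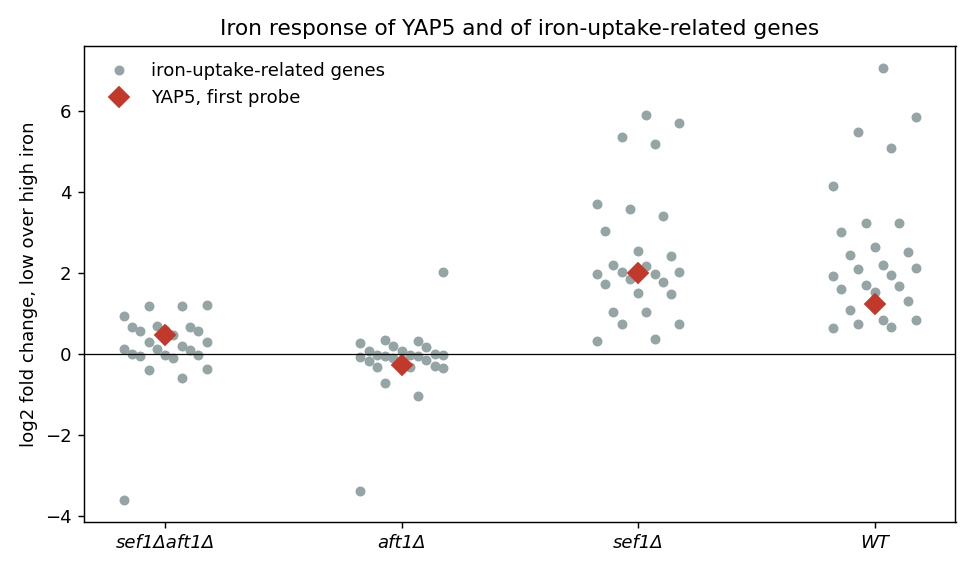
Log2 fold change at low over high iron of *YAP5* (red diamonds, first probe) and of the other iron-uptake-related genes (grey points, 1 per gene, spread sideways only for legibility) in each strain, leaving out *ARN3* and, where it was deleted, *AFT1*. *YAP5* stands at 1.24 among WT values with a median of the plotted genes of 2.10, at 1.99 in *sef1*Δ with a median of 2.03, and at 0.47 and −0.28 in the strains without *AFT1*.

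In *sef1*Δ and WT cells, the *L. kluyveri* genes matching known Yap5 targets of *S. cerevisiae* went down at low iron, where *YAP5* itself was up. *CCC1* (SAKL0H12716g) was lower at low iron in all 4 strains, by −0.66 in *sef1*Δ*aft1*Δ, −0.87 in *aft1*Δ, −1.16 in *sef1*Δ, and −1.32 in WT (adjusted p = 0.000214, 4.41e-05, 6.32e-07, and 9.3e-09, limma). *GRX4* (SAKL0H17710g) was lower as well, by −1.67, −1.09, −0.62, and −0.87 in the same order of strains (adjusted p = 4.9e-10, 9.71e-06, 0.0092, and 0.000126, limma). In *sef1*Δ, the fall of *GRX4* with its second probe was −0.42, below the size for a call. Genes called lower at low iron made up 7.51, 1.88, 2.54, and 1.9% of all genes in these 4 comparisons. *CCC1* and *GRX4* fell also in *aft1*Δ cells, where *YAP5* did not rise. Whether Yap5 regulates these genes in *L. kluyveri* was not tested.

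*TYW1* (SAKL0A04290g) did not follow them in every strain. It fell by 1.15 on the log2 scale in *sef1*Δ (adjusted p = 2.27e-06, limma) and by 0.99 in WT (8.26e-06). In *sef1*Δ*aft1*Δ, the change was −0.43 ± 0.14 (SE, adjusted p = 0.0164, limma), under 1.5-fold, and in *aft1*Δ it was −0.03 (95% CI −0.32 to 0.27). The level of *TYW1* in *aft1*Δ cells was high at both iron levels, 0.37 ± 0.23 at low and 0.39 ± 0.10 at high iron, against −2.30 ± 0.25 and −1.31 ± 0.16 in WT (SD, n = 4 each). *TYW1* lies on chromosome A, whose genes had a median shift of 0.85 and 0.81 in the same comparisons. The part of that shift in the *TYW1* difference was not tested.

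The iron responses of these genes also differed between strains. The response of *GRX4* in *sef1*Δ*aft1*Δ was larger in size than in *sef1*Δ (log2 difference −1.05) and than in WT (−0.80), both called by limma, where 8.92 and 7.06% of genes were called lower. That of *CCC1* in *sef1*Δ*aft1*Δ was smaller in size than in WT (0.66, called, as were 6.55% of genes in that direction), and its difference from *sef1*Δ (0.50) was not called. On the second *CCC1* probe, the difference from WT was not called (0.37, adjusted p = 0.223, limma) and that from *sef1*Δ was (0.61, adjusted p = 0.0441). For *TYW1*, the *aft1*Δ minus WT difference was 0.96 and the *sef1*Δ*aft1*Δ minus *sef1*Δ difference was 0.73, and both were called, with 2.18 and 6.62% of genes called higher. Neither *CCC1*, *TYW1*, nor *GRX4* was called for *sef1*Δ minus WT, the comparison in which *YAP5* stood out when it was chosen, with differences of 0.16, −0.16, and 0.25.

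**Figure D4:**
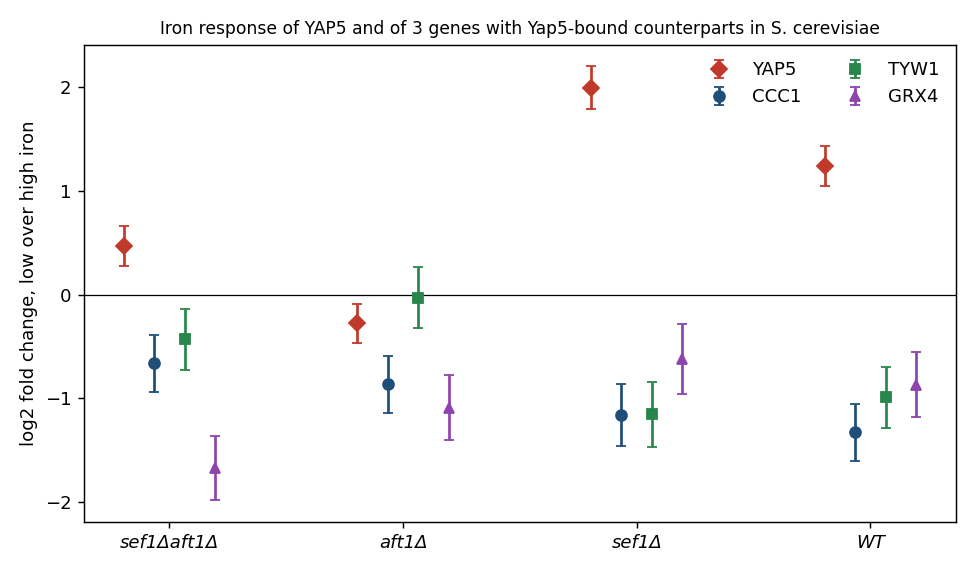
Log2 fold change at low over high iron, with 95% CIs, of *YAP5* (first probe) and of *CCC1*, *TYW1*, and *GRX4* in each strain. *CCC1* and *GRX4* lie below 0 in all 4 strains, including *aft1*Δ, where *YAP5* stands at −0.28.

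*CAD1* and *YAP6*, also annotated as bZIP factors of the Yap family, had other patterns than *YAP5*. *CAD1* (SAKL0G04950g), whose *S. cerevisiae* counterpart takes part in the response to cadmium, rose in *sef1*Δ*aft1*Δ when iron was low, by 0.80 ± 0.10 (SE, adjusted p = 3.55e-07, limma), and its response there was larger than in WT by 0.69 (called). On its second probe, this difference of 0.55 was 1.46-fold and not called. Its differences in the other strains were 0.27 in *aft1*Δ, 0.27 in *sef1*Δ, and 0.12 in WT, none of them called. For *YAP6* (SAKL0G07128g), the differences were −0.05 in *sef1*Δ*aft1*Δ, −0.10 in *aft1*Δ, 0.05 in *sef1*Δ, and −0.25 in WT, each within 1.5-fold.

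Genes with the most similar pattern over the 31 arrays were sought among 1740 genes whose group means spanned at least 1 log2 unit. The 8 with the highest Pearson's r to the first *YAP5* probe were *ARN2* (0.96), *SIT1* (0.95), the unnamed SAKL0B02266g (0.95), *FET3* (0.94), *FTR2* (0.94), *FET1* (0.94), *FRE8* (0.94), and *FET4* (0.93). All but SAKL0B02266g were in the iron-uptake-related group, and SAKL0B02266g was described in the study's tables only as similar to a hypothetical protein of *L. thermotolerans*. These points share arrays, slides, and scaling, and their likeness is a description. With the second *YAP5* probe, the same 8 genes had an r of 0.87 to 0.96, and *FET1* was the most similar. Likeness over all arrays did not mean the same response in each strain: *SIT1* rose by 5.84 in WT but by 0.10 in *sef1*Δ*aft1*Δ, and the *sef1*Δ minus WT difference of *SIT1* was −0.15 and that of *FET3* −0.14.

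The genes beside *YAP5* on chromosome F changed less between iron levels than the first *YAP5* probe did in *aft1*Δ, *sef1*Δ, and WT cells, but in *sef1*Δ*aft1*Δ cells 2 of 6 changed more in size. The second *YAP5* probe changed by −0.11 in *aft1*Δ, less in size than SAKL0F05390g (−0.17), SAKL0F05544g (−0.16), and SAKL0F05566g (0.17). For the 3 nearest measured genes on each side by systematic number, the log2 differences ran from −0.58 to 0.43 in *sef1*Δ*aft1*Δ, from −0.17 to 0.17 in *aft1*Δ, from −0.22 to 0.21 in *sef1*Δ, and from −0.35 to 0.14 in WT, all within 1.5-fold. The changes in the double mutant ran in both directions. SAKL0F05390g was higher by 0.43 (adjusted p = 0.000544, limma), under 1.5-fold. SAKL0F05456g, next to *YAP5* on the other side, was at −0.58 (5.71e-06), and SAKL0F05544g also at −0.58 (0.000343), both lower at low iron by more than *YAP5* was higher. For the *sef1*Δ*aft1*Δ minus *aft1*Δ iron response, SAKL0F05390g was called higher (0.60), and the chromosome as a whole had a median of −0.08, the same as over all genes.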

How the data were processed

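RNA of 31 cultures was labelled as cDNA from anchored oligo-dT primers and hybridized to single-color Agilent arrays with probes designed on *L. kluyveri* CBS3028. The deposited scanner files hold spot intensities that the authors extracted with Agilent Feature Extraction 10.5.1.1, background-subtracted as the processed signal, and a second deposited table holds log2 values, each the log2 processed intensity minus a constant per array close to its 75th percentile. Columns of comparisons made by the authors were not used. Here, log2 of the processed intensity minus the 75th percentile of each array over its 10620 gene probes was used, with spots marked as non-uniform left out. For each of 5316 genes, 1 probe was taken, following the study's list of best probes where it named one and otherwise its other tables or the brighter probe.

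Group means over all 31 arrays were fitted with limma 3.58.1 in R 4.3.3 without a covariate, and p-values were adjusted by Benjamini-Hochberg over all genes of a comparison. Calls were made at adjusted p-values up to 0.05 where the change was 1.5-fold or more. The fit was tried on simulated arrays with independent noise, which held no effect of slide, pair, or chromosome. The labels call the arrays of a group biological repeats. The p-values weigh a difference of group means against the spread between such repeats, pooled over all groups. They do not cover the spread between clones or between slides. The gene, the gene lists, and the tests were chosen with earlier results of these data known. For *YAP5*, differences between *sef1*Δ*aft1*Δ and the strains that chose it had been planned as tests and are given without p-values. Named are both *YAP5* probes, the deleted genes, the other iron-uptake-related genes by counts with values where a sentence turns on them, 3 counterparts of Yap5 targets, 2 genes annotated to the Yap family, 3 neighbours on each side, and the 8 genes of highest correlation with *YAP5*. Alternatives covered the test, the scaling, the background correction, the filters, the probe, the replicate block, and each array left out. The number of arrays limits the precision. Same-numbered arrays deviated together from their group means in *sef1*Δ*aft1*Δ (correlations of 0.241 to 0.53), *aft1*Δ (0.119 to 0.286), and WT (0.124 to 0.481). In *sef1*Δ, this did not hold for each pair (−0.095 to 0.223). The main fit used no pairs. For iron responses, the replicate block read the numbers as pairs within every strain. Drawings were made with matplotlib 3.10.9. The concentrations of iron and BPS are printed in µM, as in the study's text on these cultures.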

Additional observations from a re-analysis of the deposited data

Results flagged for a closer look

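The iron response of *YAP5* (log2 level at low minus high iron, first probe) differed between strains by more than the spread between arrays. The difference was 0.745 for *sef1*Δ*aft1*Δ minus *aft1*Δ, −1.527 for *sef1*Δ*aft1*Δ minus *sef1*Δ, and −0.773 for *sef1*Δ*aft1*Δ minus WT. The responses of *aft1*Δ, *sef1*Δ, and WT took part in choosing the gene, so these differences are a description and were not tested on independent arrays. No single array was marked as an outlier of its group on either probe. The widest group was low-iron *sef1*Δ on the second probe, which ran from −0.93 to 0.21 (SD 0.48, n = 4).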

How the results depend on the processing

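The limits lie in the number of arrays, in the single clone per genotype, and in the slides, each of which holds one strain. Of the *YAP5* values with *sef1*Δ*aft1*Δ, 3 high-iron differences changed sign under alternatives. The rise in *sef1*Δ*aft1*Δ ranged from 0.468 to 0.574 over 13 alternatives. On the first probe, it ranged from 0.422 to 0.519 with single arrays left out. All of these values were under 1.5-fold, but the highest, 0.574 on the second probe, was 1.49-fold. Whether the second probe stays under 1.5-fold with single arrays left out was not tested. Scaling by chromosome F genes, chosen after seeing the data, gave 0.505.

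With the second probe, *sef1*Δ*aft1*Δ was above WT (0.227), *aft1*Δ (0.282), and *sef1*Δ (0.187) at high iron. The mean of the probes gave 0.113 against *aft1*Δ and 0.01 against *sef1*Δ, and normexp background correction 0.063 against *aft1*Δ. The cause was not tested. Values without a test moved by more than the SD within groups as follows. The second probe gave iron responses of −0.111 in *aft1*Δ, 2.162 in *sef1*Δ, and 1.442 in WT, *aft1*Δ minus WT differences of −1.609 at low and −0.056 at high iron, and *sef1*Δ minus WT differences of 0.76 at low and 0.04 at high iron. Scaling to the array median gave *aft1*Δ minus WT differences of −1.989 at low and −0.469 at high iron and a *sef1*Δ minus WT difference of −0.289 at high iron. Quantile normalization gave −0.42 for *aft1*Δ minus WT at high iron. Normexp gave 2.132 for the response in *sef1*Δ and 0.884 for *sef1*Δ minus WT. For the *sef1*Δ*aft1*Δ minus *aft1*Δ difference less the *sef1*Δ minus WT difference, added after seeing the data, it gave −0.184.

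Of the 28 other iron-uptake-related genes, the second probes called 5 higher in *sef1*Δ*aft1*Δ, 1 higher in *aft1*Δ, and 3 higher and 1 lower for *sef1*Δ*aft1*Δ minus *aft1*Δ. Median scaling called 1 lower in *sef1*Δ*aft1*Δ. With the replicate number as a block, the rise in *sef1*Δ*aft1*Δ was 0.468 (adjusted p = 0.000174, limma), and no call changed.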
